A study of Mus musculus with 20 samples.

Results

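The genes described here are 10 of the 55416 genes in the count table, chosen by symbol with earlier results of these data known. They are Nr3c1, which encodes the glucocorticoid receptor, 7 genes that glucocorticoids are known to raise in muscle and other tissues (Fkbp5, Tsc22d3, Sgk1, Ddit4, Klf9, Klf15 and Zbtb16), and the metallothionein genes Mt1 and Mt2. All 10 had enough counts to be tested. They were compared between secretome-treated and control quadriceps, and between the muscles of each group.

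The mice were male C57BL/6J, wild type, 26 to 28 months old. All were fasted for 4 h and received a single 50 µL injection into the right quadriceps, and the muscle was collected 3 h later. The 10 control muscles received 0.9% saline and the 10 secretome-treated muscles received a cell-free product of medium conditioned by human pluripotent stem cells. The labels name no untreated muscle, so the injection itself was common to both groups and had no comparison. The extraction text of the labels speaks of myotubes, whereas the study's methods describe pieces of tissue. The 9 muscle fibre markers were counted in every library, with at least 238355 reads of Acta1 (skeletal actin) and 288685 of Myh4 (the fast myosin heavy chain IIb).

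Glucocorticoids bind a receptor that waits in the cytoplasm with chaperones, moves to the nucleus and binds DNA at glucocorticoid response elements. In muscle the hormone is raised by fasting, stress and the daily rhythm, and its target genes slow protein synthesis, favour protein and amino acid breakdown, damp inflammation and, through Fkbp5, weaken the receptor's own signal. Metallothioneins are small cysteine-rich proteins that hold zinc and copper. Their genes respond to metals through metal response elements, and also to glucocorticoids and to cytokines of the acute phase response.

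Promoter sequences are shown for the 3 genes in which a window around an annotated start held the full palindrome of the glucocorticoid response element or more than 1 metal response core before the start. They come from RefSeq on build GRCm38.p6, whereas the submitters' processing notes name build GRCm39, so these positions do not apply to the counted genes' own build. The sequences before the Mt1 start (chr8:94178839-94179088, plus strand) and the Mt2 start (chr8:94172368-94172617, plus strand) are given with a stretch before 1 of the 6 annotated Sgk1 starts (chr10:21993678-21993738, plus strand). Capitals mark matches on either strand to the palindrome (GNACA and TGTNC with 3 bases between them) or to the metal response cores TGCACNC and TGCGCNC.
Mt1: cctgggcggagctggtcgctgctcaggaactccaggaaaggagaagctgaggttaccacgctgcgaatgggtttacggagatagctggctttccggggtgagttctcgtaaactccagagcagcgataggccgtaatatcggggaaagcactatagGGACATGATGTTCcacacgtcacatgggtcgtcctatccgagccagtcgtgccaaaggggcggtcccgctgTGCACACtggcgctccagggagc
Mt2: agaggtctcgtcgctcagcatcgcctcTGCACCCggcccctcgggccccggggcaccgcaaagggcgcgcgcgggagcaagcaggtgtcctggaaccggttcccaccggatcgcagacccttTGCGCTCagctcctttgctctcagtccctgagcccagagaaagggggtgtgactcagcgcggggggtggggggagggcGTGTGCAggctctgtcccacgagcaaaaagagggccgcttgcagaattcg
Sgk1: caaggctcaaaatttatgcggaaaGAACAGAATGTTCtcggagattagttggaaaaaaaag

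The palindrome began at position -94 from the Mt1 start and at -188 from that Sgk1 start. It occurred in 0.475% of the 32851 promoter windows, each reaching from 250 bases before a start to 50 after it. In Mt1 a metal response core lay at -23, and in Mt2 such cores lay at -223, -128 and -50. One or the other core occurred in 25.7% of all windows, which makes a match common. The shorter glucocorticoid hexamer AGAACA, found in 19% of windows, matched in Sgk1, where 2 of its matches overlapped the palindrome, and in 1 of 3 windows of Tsc22d3. Klf15, Ddit4 and another Sgk1 window held 1 metal response core each, further cores lay just after the Mt1 and Mt2 starts, and the windows of Fkbp5 and Klf9 held none of these letters. Windows for 8 of the 10 genes were matched, and Nr3c1 and Zbtb16 had none. A match is a description of letters and says nothing of binding.

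Library totals lay between 13286983 and 22987237 counted reads. Levels are given as CPM, counts scaled to a common library size after TMM normalization. The labels number the libraries 1 to 20. Libraries 1 to 5 were all controls, 16 to 20 were all secretome-treated, and only 6 to 15 held both treatments (control 6 to 10 and secretome 1 to 5). These ranges stood apart in the share of reads on titin, Ttn, which was 7.02% to 11% in libraries 1 to 5, 16.4% to 21.1% in 6 to 15 and 14.2% to 14.7% in 16 to 20. The labels name no batch, and values within libraries 6 to 15 are given beside those of all 20 muscles. Between libraries 1 to 5 and 16 to 20, treatment and library number cannot be told apart.

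Per kilobase of exon, the genes covered a wide range of levels. Over the 20 muscles, Mt2 averaged 184 CPM per kilobase and Mt1 68.8, followed by Tsc22d3 at 59.1, Zbtb16 at 53.3, Klf9 at 48.8 and Sgk1 at 36.5. Klf15 at 18.4 and Nr3c1 at 16.4 were lower, and Ddit4 at 9.18 and Fkbp5 at 5.87 were the lowest. The smallest count of any of them in a library was 69, for Ddit4. The exon length joins all annotated exons of a gene, which gave 588 bases for Mt2 and 1246 for Mt1. Without division by length, Mt2 averaged 108 CPM and Mt1 85.7 CPM. Reads of Fkbp5, Klf9 and Mt2 may include those of overlapping genes in the annotation used here, and whether strand was used in counting is not given in the sources used here. Mt1 and Mt2, which are neighbours on the chromosome, shared no stretch of 31 bases in their exons.

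**Figure D1:**
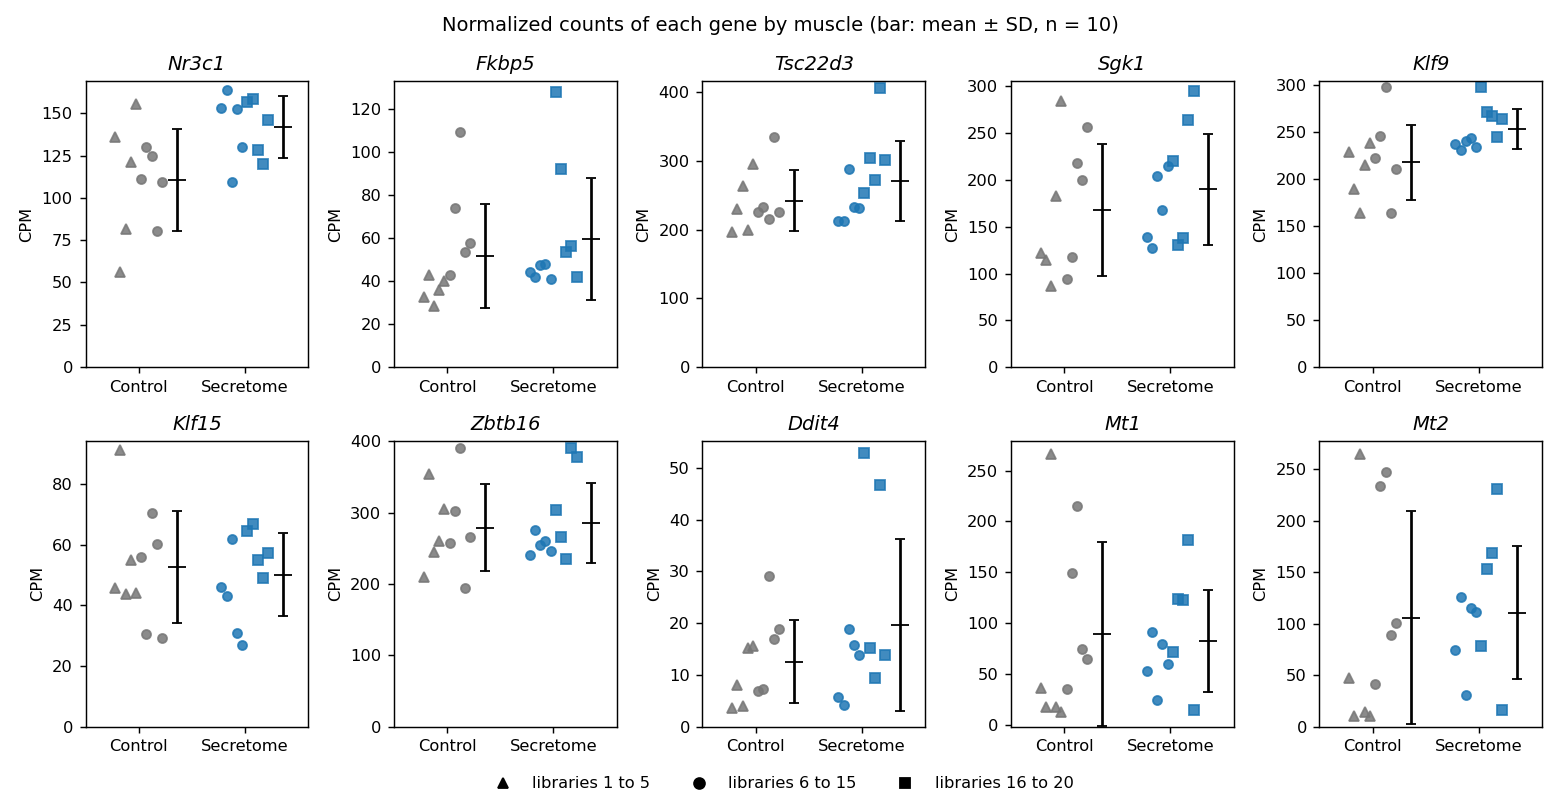
Normalized counts (CPM, linear axis from 0 or below) of each gene in each muscle, with the symbol shape giving the range of library numbers and the black bar the mean ± SD of 10 muscles. Both groups overlap for every gene, and on the log2 scale, not drawn here, Mt1, Mt2 and Ddit4 vary most between muscles of the same group.

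The first question was whether a single secretome injection changed these genes within 3 h. In edgeR's quasi-likelihood test over all 20 muscles, 0 of the 10 genes passed a 5% false discovery rate (FDR), against 0.00691% of the 14471 genes tested. DESeq2 and voom with quality weights also called 0 of the 10. At an unadjusted p under 0.05 there were 2 of 10, Nr3c1 and Klf9, both higher, against 15.7% of all genes in either direction and 6.52% higher. The groups overlapped for all 10 genes, and did not for 0.0484% of all genes. The fold change was above 1 for 8 of the 10, against 44.1% of all genes, and their median log2 fold change was 0.17, against -0.03 over all genes. Macrophage markers, lower in secretome-treated muscle for 8 of 8 genes, and adipocyte markers, lower for 7 of 7, moved alongside. The summed macrophage markers ranged from 47.3 to 170 CPM (median 89.7) in control and from 39.2 to 119 CPM (median 47.9) in secretome-treated muscle, and all 8 were detected in every library. The summed adipocyte markers ranged from 104 to 419 CPM (median 130) in control and from 60.1 to 164 CPM (median 112) in secretome-treated muscle. The part of either cell type in the values below was not tested. In whole muscle, fewer cells of a type and less RNA per cell cannot be told apart.

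The receptor gene Nr3c1 was the member with the smallest p. It ranged from 56.1 to 155 CPM in control (median 116) and from 109 to 164 CPM in secretome-treated muscle (median 149). The groups overlapped, 9 of 10 secretome-treated muscles lay above the control median, and the 3 lowest values, 56.1, 80.2 and 81.6 CPM, were all controls. Means were 142 ± 18.4 in secretome-treated vs. 111 ± 29.9 CPM in control muscle (SD, n = 10 each). The log2 fold change was 0.36 (SE 0.138, unadjusted p = 0.016, edgeR adjusted p = 0.229), and it stayed between 0.28 and 0.43 when each muscle was left out in turn. It was again 0.36 within libraries 6 to 15 (SE 0.142, adjusted p = 0.459), and between libraries 1 to 5 and 16 to 20 it was 0.37 (SE 0.203). The contrast between both sets of libraries, -0.01 (SE 0.287), was the nearest to 0 among the 10 genes.

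Fkbp5 encodes the immunophilin co-chaperone that lowers the receptor's affinity for its hormone and is among the most consistent glucocorticoid targets. Its levels depended on the libraries compared. In libraries 6 to 15 the controls had 43.0, 73.8, 109, 53.5 and 57.7 CPM and the secretome-treated muscles had 44.3, 42.1, 47.5, 48.0 and 41.1 CPM. All 5 secretome-treated muscles lay below the control median there, and 2 lay below the lowest control. In libraries 1 to 5 the controls had 32.4, 42.7, 28.5, 35.9 and 39.8 CPM, and in libraries 16 to 20 the secretome-treated muscles had 128, 92.1, 53.5, 56.1 and 42.1 CPM. There 4 of the 5 secretome-treated muscles exceeded the highest control, and secretome 10 did not.

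Over all 20 muscles these differences left a log2 fold change of 0.20 for Fkbp5 (SE 0.250, adjusted p = 0.714), which was 0.007 without secretome 6, the muscle at 128 CPM. It was -0.59 within libraries 6 to 15 (SE 0.205, unadjusted p = 0.0139, adjusted p = 0.449), and -0.34 without control 8, the muscle at 109 CPM. Between libraries 1 to 5 and 16 to 20 it was 1.05 (SE 0.257, adjusted p = 0.0302), a contrast added after the data were seen. That call was lost in 5 of the 10 fits that left out a muscle, with adjusted p = 0.0812 without control 3, 0.0536 without control 4, 0.0916 without secretome 6, 0.0599 without secretome 7 and 0.0520 without secretome 9. The contrast of both effects was -1.65 (SE 0.362, unadjusted p = 0.000181) and missed the FDR with an adjusted p of 0.129 in edgeR, whereas voom with quality weights gave -1.69 with an adjusted p of 0.0392. In that contrast edgeR called 0 of 10 members, against 0.0553% of all genes, and 2 of 10, Fkbp5 and Ddit4, had an unadjusted p under 0.05, both negative, against 11.1% of all genes in either direction and 5.51% negative.

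Ddit4 encodes an inhibitor of the growth kinase mTOR that fasting, stress and glucocorticoids raise. It ranged from 3.68 to 29.0 CPM in control (median 11.7) and from 4.24 to 52.8 CPM in secretome-treated muscle (median 14.5), and the groups overlapped over nearly the whole control range. The high secretome values were 52.8 CPM in secretome 6 and 46.7 CPM in secretome 9, both in libraries 16 to 20. Its log2 fold change was 0.65 over all muscles (SE 0.452, adjusted p = 0.487) and 0.35 without secretome 6. It was -0.41 within libraries 6 to 15 (SE 0.515, adjusted p = 0.787), or -0.07 without control 8, and 1.57 between the others (SE 0.586, adjusted p = 0.134), with a contrast of -1.99 (SE 0.820, unadjusted p = 0.0259, adjusted p = 0.354).

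Klf9, a Krüppel-like transcription factor and early glucocorticoid target, had the smallest ratio of highest to lowest muscle of the 10 genes, 1.82. Control muscles ranged from 164 to 297 CPM (median 219) and secretome-treated muscles from 231 to 297 CPM (median 244). All 10 secretome-treated muscles lay above the control median, yet the groups overlapped, because controls 5, 7 and 8 reached 238, 246 and 297 CPM. The log2 fold change was 0.22 (SE 0.0962, unadjusted p = 0.0341, adjusted p = 0.281). It was 0.07 within libraries 6 to 15 (SE 0.133, adjusted p = 0.871) and 0.38 between the others (SE 0.129, adjusted p = 0.1), where the groups did not overlap, as for 4.85% of all genes.

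The remaining targets differed by less than the spread between muscles. Tsc22d3, which encodes the anti-inflammatory leucine zipper protein GILZ, ranged from 197 to 335 CPM in control (median 228) and from 212 to 406 CPM in secretome-treated muscle (median 262), with a log2 fold change of 0.16 (SE 0.120, adjusted p = 0.51), or 0.082 without secretome 9. Sgk1, a kinase that regulates ion transport and fibre size, ranged from 87.2 to 285 CPM (median 152) and from 128 to 295 CPM (median 186), with a log2 fold change of 0.18 (SE 0.220, adjusted p = 0.713), or 0.088 without secretome 10. For both genes the highest muscle was in the secretome group and the lowest in control, and most of the 2 ranges was shared. Klf15, which drives amino acid breakdown, ranged from 29.4 to 91.1 CPM (median 50.4) and from 26.9 to 66.7 CPM (median 51.9), a log2 fold change of -0.07 (SE 0.191, adjusted p = 0.881). Zbtb16, a zinc finger repressor, ranged from 195 to 391 CPM (median 263) and from 235 to 391 CPM (median 262), a log2 fold change of 0.03 (SE 0.126, adjusted p = 0.918). Medians of both groups were nearly equal for these last genes, and the sign of each turned under some alternatives. Within libraries 6 to 15 the log2 fold changes of these 4 genes were -0.06 for Tsc22d3 (SE 0.134), -0.05 for Sgk1 (SE 0.261), -0.23 for Klf15 (SE 0.284) and -0.13 for Zbtb16 (SE 0.150). Between the others they were 0.37 (SE 0.153), 0.40 (SE 0.318), 0.06 (SE 0.258) and 0.19 (SE 0.172), in the same order.

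As a group, the genes had other signs within libraries 6 to 15. There 0 of 10 genes passed the FDR, against 0% of all genes, and 2 of 10 had an unadjusted p under 0.05 (Nr3c1 higher and Fkbp5 lower), against 9.9% of all genes, 5.02% higher and 4.88% lower. Only Nr3c1 and Klf9, 2 of 10, had a fold change above 1, against 48% of all genes, and the median log2 fold change was -0.18, against -0.01 over all genes. Between libraries 1 to 5 and 16 to 20 all 10 were above 1, against 44.6% of all genes, with a median of 0.39 against -0.05. There 1 of 10, Fkbp5, passed the FDR, against 3.68% of all genes, and 4 of 10 (Fkbp5, Klf9, Ddit4 and Tsc22d3) had an unadjusted p under 0.05, all higher, against 21.2% of all genes in either direction and 9.56% higher. Marker sums of fibroblasts and of muscle fibres also differed between these libraries, with no overlap. Fibroblast markers summed to 680 to 952 CPM in libraries 1 to 5 and to 444 to 592 CPM in 16 to 20. Muscle fibre markers summed to 123145 to 198512 CPM and to 219765 to 292278 CPM, in the same order. Among the fibre markers Ttn averaged 159900 CPM over the 20 muscles and Myh4, the next, 43440 CPM. The fibre sum thus largely repeats the titin share given above. The part of either cell type was not tested. The sign was opposite in the 2 sets of libraries for 8 of 10 genes, against 42.8% of all genes. Apart from Fkbp5 and Ddit4, given above, no contrast between the sets had an unadjusted p under 0.05 in edgeR.

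**Figure D2:**
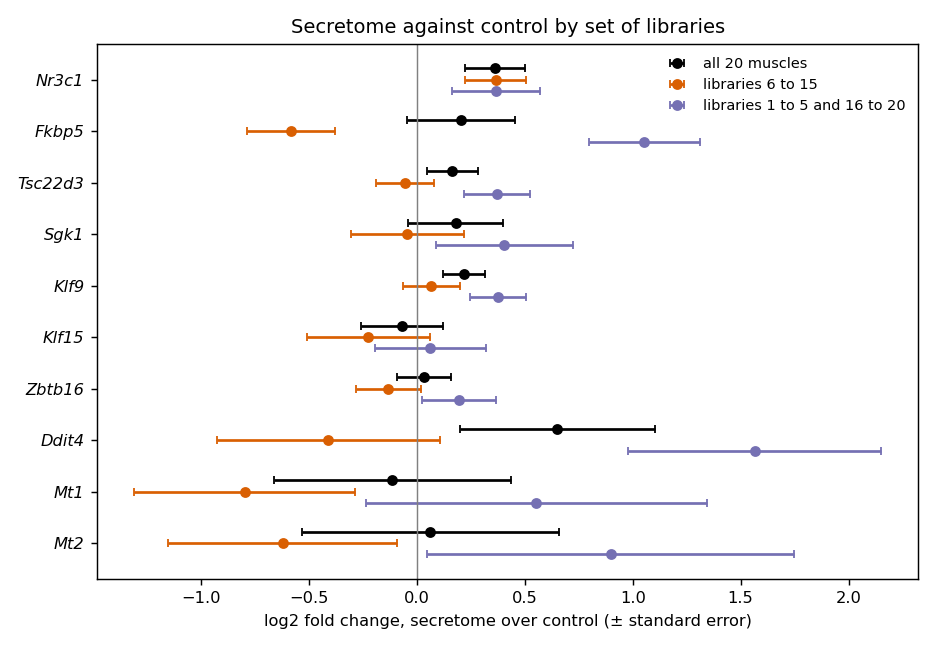
Log2 fold change of secretome over control for each gene, with its standard error, over all 20 muscles (black), within libraries 6 to 15 (orange) and between libraries 1 to 5 and 16 to 20 (purple). Nr3c1 lies between 0.36 and 0.37 in all 3, while Fkbp5 lies at -0.59 within libraries 6 to 15 and at 1.05 between the others.

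The metallothioneins were the most variable of the 10 genes. Mt2 ranged from 9.97 to 265 CPM in control (median 68.3) and from 15.8 to 231 CPM in secretome-treated muscle (median 113). Mt1 ranged from 12.6 to 266 CPM in control (median 50.9) and from 14.6 to 182 CPM in secretome-treated muscle (median 75.7). The high muscles were the same for both genes. Controls 3, 7 and 8 had 265, 233 and 247 CPM of Mt2 and 266, 149 and 216 CPM of Mt1, and secretome 9 had 231 and 182 CPM. At the low end, controls 2, 4 and 5 had 10.4, 14.7 and 9.97 CPM of Mt2, and secretome 10 had 15.8 CPM. Both ends of the range thus held muscles of both treatments.

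Their group means were close beside this spread. Mt2 averaged 110 ± 64.6 in secretome-treated vs. 106 ± 103 CPM in control muscle, a log2 fold change of 0.06 (SE 0.595, adjusted p = 0.969), and Mt1 averaged 82.3 ± 50.3 vs. 89.1 ± 90.2 CPM, a log2 fold change of -0.11 (SE 0.551, adjusted p = 0.933; SD, n = 10 each). Without control 3, both log2 fold changes were above 0, at 0.32 for Mt2 and 0.25 for Mt1. They were, within libraries 6 to 15, -0.62 (SE 0.532, adjusted p = 0.686) and -0.80 (SE 0.512, adjusted p = 0.61), and without control 8 they were -0.33 and -0.38. Between libraries 1 to 5 and 16 to 20 they were 0.90 (SE 0.851) for Mt2 and 0.55 (SE 0.790) for Mt1, or 2.65 and 2.27 without control 3 (adjusted p = 0.0827 and 0.0805). Given these standard errors, neither gene's difference could be told from 0.

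The second question was how far each gene varied between muscles of the same treatment. The SD of log2 CPM within treatment was 1.55 for Mt2, 1.35 for Mt1 and 1.06 for Ddit4, at the 99.7, 99.5 and 98.6 percentiles of all genes tested, whose median SD was 0.334. Fkbp5 followed with 0.565, Sgk1 with 0.534 and Klf15 with 0.474, all above that median. Nr3c1, at 0.342, lay near it, and Zbtb16 at 0.288, Tsc22d3 at 0.268 and Klf9 at 0.204 lay below. The highest muscle exceeded the lowest 26.5-fold for Mt2, 21.1-fold for Mt1 and 14.3-fold for Ddit4, but only 1.82-fold for Klf9. Within libraries 6 to 15 the SD was 0.962 for Mt2, 0.894 for Mt1 and 0.925 for Ddit4, against a median of 0.275 over all genes, and from 0.224 for Klf9 to 0.534 for Klf15 among the other genes. The median SD of all genes was itself larger among controls (0.372) than among secretome-treated muscles (0.264). The deviations from the group median were on average smaller in secretome-treated muscle for 9 of the 10 genes, the exception being Tsc22d3. That count has no share over all genes beside it, and the median SD of all genes differed in the same direction. In limma's test of these deviations, 0 of 10 genes passed the FDR, against 0.00691% of all genes, and 0 of 10 had an unadjusted p under 0.05, against 8.29%, with unadjusted p from 0.064 for Mt2 to 0.851 for Ddit4. A missed threshold here does not show equal spread.

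**Figure D3:**
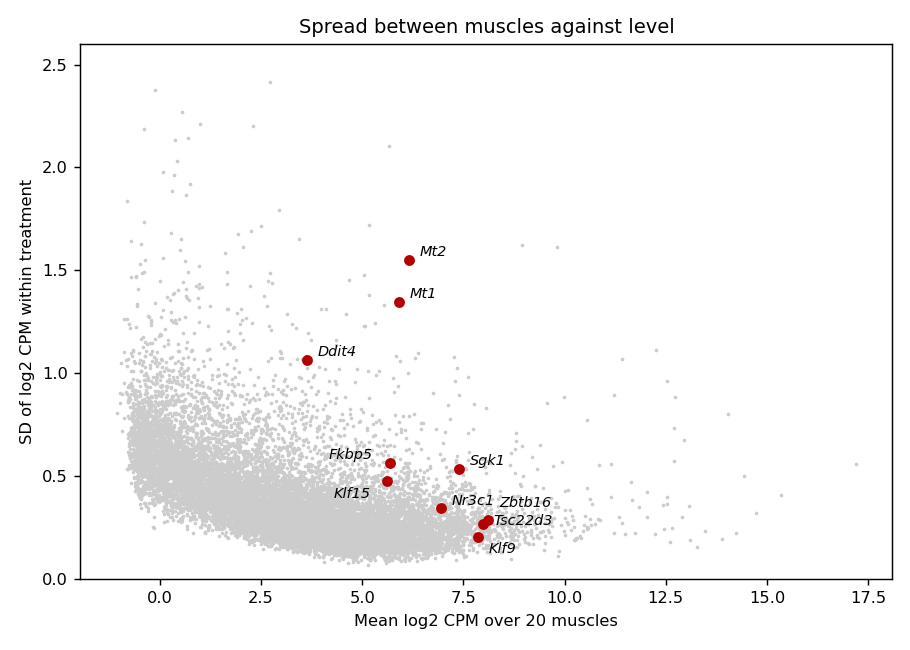
SD of log2 CPM within treatment against the mean log2 CPM over 20 muscles, for all 14471 genes tested (grey) and the 10 genes (red). Mt2 (1.55), Mt1 (1.35) and Ddit4 (1.06) lie above most genes of their level, while Klf9 (0.204) lies among the steady ones.

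The third question was which of the genes varied together. Of the 45 pairs, 5 passed a 5% FDR by Pearson's r of log2 CPM over the 20 muscles (permutation test, two-sided, 100000 resamples, Benjamini-Hochberg adjustment over the pairs), all 5 positive, and 2 passed by both r and Spearman's rho. Mt1 and Mt2 were the 1 pair that passed within libraries 6 to 15. Pairs of other genes were not tested in this way, so these counts have no share over all genes beside them. The permutation treated the 20 muscles as exchangeable, although the ranges of library numbers stood apart. With each treatment and range of library numbers centred on its mean, r of the 5 pairs was from 0.492 to 0.985, given without a test. Mt1 and Mt2 had r = 0.976 and rho = 0.977 (permutation p = 1e-05 for each, the smallest these resamples can give, adjusted p = 0.00045). Their r was 0.966 without the 2 muscles farthest from the median of Mt1 (control 5 and secretome 10), 0.98 among controls, 0.982 among secretome-treated muscles and 0.971 within libraries 6 to 15.

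Sgk1 and Ddit4 had r = 0.764 and rho = 0.755 (permutation p = 6e-05 and 0.00024, adjusted p = 0.00135 and 0.0054). Without controls 3 and 6, the farthest from the median of Sgk1, r was 0.717 (adjusted permutation p = 0.0167), and within libraries 6 to 15 it was 0.83 (adjusted permutation p = 0.0873). Nr3c1 and Klf9 had r = 0.737 and rho = 0.573 (permutation p = 0.00044 and 0.00959, adjusted p = 0.0066 and 0.0863), with r = 0.656 without controls 2 and 9 (adjusted permutation p = 0.072) and 0.637 within libraries 6 to 15 (adjusted permutation p = 0.259). That pair passed in all 20 fits with a single muscle left out, but not without both of these controls, whose Nr3c1 was the lowest. Its r was 0.716 among controls but 0.243 among secretome-treated muscles, and 0.638 with each treatment centred on its mean.

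Fkbp5 had r = 0.643 and rho = 0.611 with Ddit4 (permutation p = 0.00202 and 0.00511, adjusted p = 0.0227 and 0.0575) and r = 0.63 and rho = 0.611 with Klf9 (permutation p = 0.00358 and 0.00461, adjusted p = 0.0322 and 0.0575). Without control 8 and secretome 6 they fell to 0.434 and 0.428 (adjusted permutation p = 0.382 for each), and neither relation held without these 2 muscles. Within libraries 6 to 15 they were 0.507 and 0.443 (adjusted permutation p = 0.437 and 0.585). With each treatment centred on its mean in these libraries, r was 0.460 with Ddit4 and 0.738 with Klf9, given without a test. Over all muscles, each pass was also lost without control 3, control 8 or secretome 6 alone. It was further lost without secretome 7 for Klf9 and without control 1 for Ddit4. In these lost fits r was from 0.555 to 0.604 for Klf9 and from 0.526 to 0.607 for Ddit4. The other 40 pairs did not pass, among them Nr3c1 with Fkbp5 (r = 0.26) and Fkbp5 with Mt2 (r = 0.396). Over all muscles r was above 0 in 35 of all 45 pairs, again with no share over pairs of other genes beside it. Nr3c1 with Tsc22d3 had r = -0.094 over all muscles. Within libraries 6 to 15 it had r = -0.793 (permutation p = 0.00582, adjusted p = 0.0873).

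**Figure D4:**
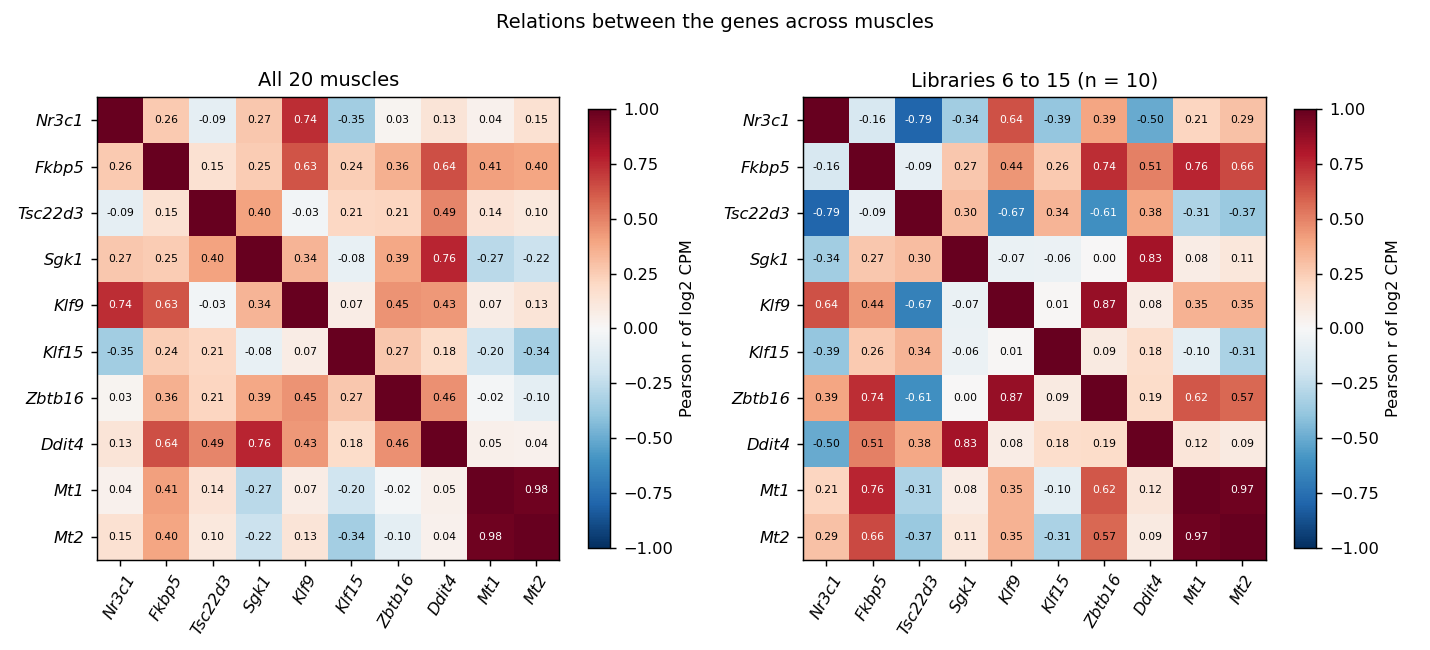
Pearson r of log2 CPM for every pair of the 10 genes, over all 20 muscles (left) and within libraries 6 to 15 (right), from -1 (blue) to 1 (red). Mt1 and Mt2 are at 0.98 and 0.97, and Sgk1 and Ddit4 at 0.76 and 0.83.

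**Figure D5:**
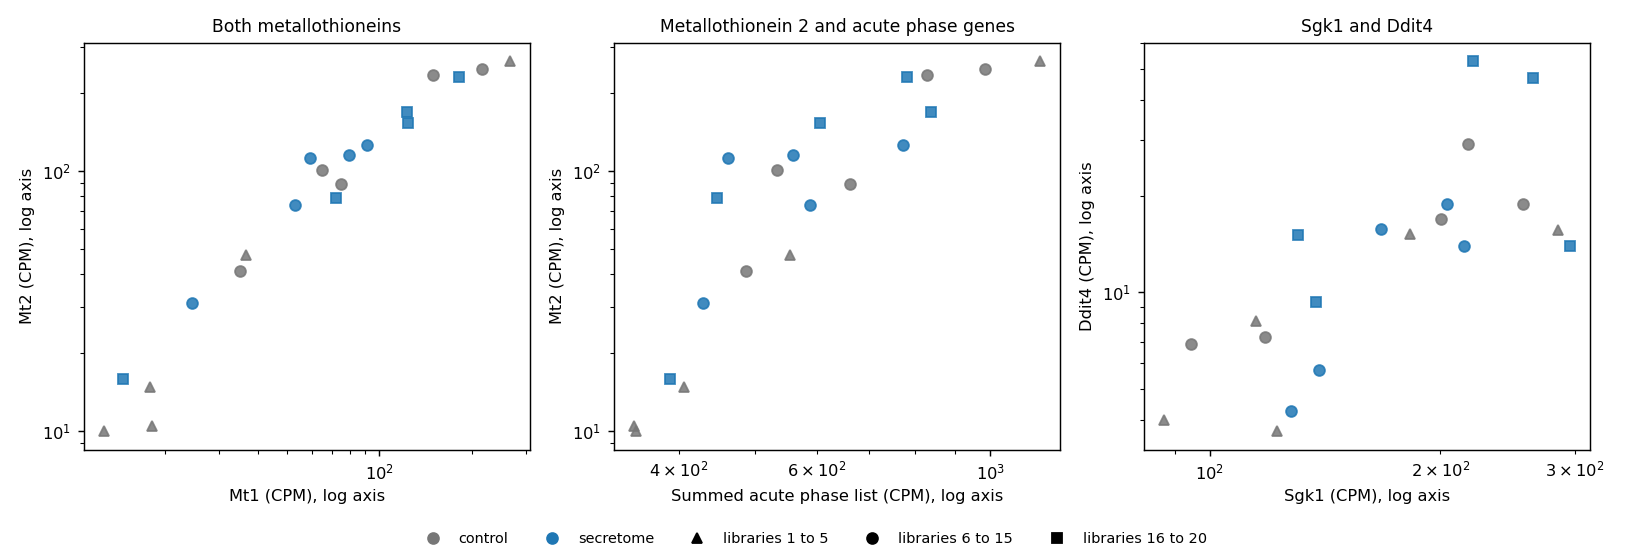
Levels in each muscle on log axes for Mt2 against Mt1, Mt2 against the summed CPM of the acute phase list, and Ddit4 against Sgk1, with grey for control, blue for secretome-treated and the shape for the range of library numbers. Both treatments and all ranges lie along the same line in the first panel, whose r is 0.976.

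The genes most like Mt2 and Fkbp5 across muscles were sought after each treatment was centred on its mean, among 13171 genes with a symbol and at least 1 CPM, as a description without p. All such values share the same libraries and their normalization. Closest to Mt2 were Mt1 (r = 0.979), Sh3bp2 (0.935), Stat3 (0.913), which encodes the transcription factor of the acute phase response, Hbegf (0.896), a growth factor of the EGF family, and Actn1 (0.894), a non-muscle actinin. These values were 0.974, 0.911, 0.877, 0.944 and 0.926 within libraries 6 to 15. Of the 14 acute phase genes tested, 11 had r above 0.5 with Mt2, that is 78.6% against 6.11% of all genes tested, with a median r of 0.722. Among them, named after their values were seen, were Lcn2 (0.845), which encodes the iron-binding lipocalin 2, Serpina3n (0.821), an acute phase protease inhibitor, and Socs3 (0.817), the feedback inhibitor of STAT3. The counts were 12 of 14 within libraries 6 to 15, 85.7% against 15.2% of all genes, and 11 of 14 without control 3, against 7.37%. Summed acute phase genes ranged from 351 to 1156 CPM in control and from 390 to 841 CPM in secretome-treated muscle.

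Among genes of metal handling, 3 of 22 had r above 0.5 with Mt2, 13.6% against 6.11% of all genes, with a median of 0.0792, and 6 of 22 within libraries 6 to 15, 27.3% against 15.2%. Of the 24 other glucocorticoid-responsive genes, 7 had r above 0.5 with Mt2, 29.2%, and 6 within libraries 6 to 15, 25%. The highest of these 7, Lcn2 (0.845) and Cebpd (0.803), are also on the acute phase list and counted there. The 3 genes of metal handling were the zinc importers Slc39a14 (0.875) and Slc39a10 (0.667) and the metallothionein Mt3 (0.649). The metal-responsive transcription factor Mtf1 had 0.139 and the zinc exporter Slc30a1, itself a textbook target of that factor, had 0.0993 (all named after their values were seen). Neutrophil markers had r above 0.5 with Mt2 for 4 of 5 genes tested (80% against 6.11% of all genes), for 1 of 5 within libraries 6 to 15 (20% against 15.2%) and for 3 of 5 without control 3 (60% against 7.37%). Their summed level ranged from 4.22 to 104 CPM in control and from 3.65 to 111 CPM in secretome-treated muscle, and Ly6g was at 0 in 15 of 20 libraries. Control 3, the highest in Mt2, also had the most neutrophil markers of any control, 104 CPM. Controls 7 and 8, next in Mt2 among controls, had 7.29 and 14.3 CPM of them. Secretome 8, with 111 CPM of them, had 169 CPM of Mt2. Secretome 9, the highest of its group in Mt2 at 231 CPM, had 5.94 CPM of them. The part of neutrophils in the Mt2 values was not tested. Macrophage markers had r above 0.5 with Mt2 for 0 of 8 genes over all muscles and 1 of 8 within libraries 6 to 15, against 15.2% of all genes. Their median r with Mt2 was -0.162 over all muscles. Within libraries 6 to 15 it was -0.528, against -0.0223 over all genes, and the 1 gene above 0.5 there was Cd68 (0.735). The part of macrophages in the Mt2 values was not tested.

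Closest to Fkbp5 was Foxo1 (r = 0.902, and 0.884 within libraries 6 to 15), the forkhead factor that turns on genes of muscle breakdown in fasting and that glucocorticoids raise. It was followed by Atp6v1b2 (0.832), a subunit of the lysosomal proton pump, Kcnf1 (0.811), a potassium channel subunit, 6430548M08Rik (0.811) and Lrrc30 (0.804). The 24 other glucocorticoid-responsive genes tested had r above 0.5 with Fkbp5 in 8 cases, 33.3% against 2.34% of all genes, with a median of 0.387. Within libraries 6 to 15 it was 13 of 24, 54.2% against 10.8%. Besides Foxo1, those with the highest r were Foxo3 (0.742), Pik3r1 (0.674), a regulatory subunit of the PI3 kinase, and the clock gene Per1 (0.651). The ubiquitin ligases of muscle atrophy Fbxo32 (-0.07) and Trim63 (-0.08) lay near 0. Acute phase genes had r above 0.5 with Fkbp5 for 0 of 14 over all muscles, against 2.34% of all genes. Within libraries 6 to 15 it was 7 of 14, 50% against 10.8%, with a median of 0.538. The glucocorticoid-responsive list had a median of 0.564 there, and Lcn2 (0.891) and Cebpd (0.834) were in both counts. For the 8 macrophage markers the median r with Fkbp5 was -0.078 over all muscles. Within libraries 6 to 15 it was -0.647, against -0.00401 over all genes, and the highest of them was Cd68 (0.31). The part of macrophages in the Fkbp5 values was not tested. Of the 15 clock genes, Per1 and Arntl (0.559) were above 0.5, and Dbp (-0.732) and Per3 (-0.627) were below -0.5 (genes named after their values were seen). The time of day at which each muscle was taken is not given in the sources used here.

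The wider pathway was compared between treatments in the same fit, and 0 genes of any of the following lists passed the FDR. The receptor axis list includes Nr3c1 and Fkbp5, and the metal handling list includes Mt1 and Mt2, so the results of these members are counted again here. Their counts at an unadjusted p under 0.05 stand against 15.7% of all genes over 20 muscles and 9.9% within libraries 6 to 15. Of the 15 tested genes of the receptor axis (receptors, chaperones, cofactors and enzymes of corticosterone), 11 were higher and 4 lower, and Nr3c1 was the 1 gene with an unadjusted p under 0.05. Next by p were the corepressor Ncor1 (log2 fold change 0.22, adjusted p = 0.345) and the chaperone Hspa8 (0.28, adjusted p = 0.368). In libraries 6 to 15, 7 of the 15 were higher and 8 lower, 1 higher and 2 lower at an unadjusted p under 0.05. The higher gene at that level was Nr3c1, and Fkbp5 was 1 of the 2 lower genes. Hspa8 was at -0.02 there. Of the 24 other glucocorticoid-responsive genes tested, 13 were higher and 11 lower, with 0 at an unadjusted p under 0.05 and a median log2 fold change of 0.03. The smallest p were those of Irs2 (0.33, adjusted p = 0.42), the insulin receptor adaptor, Mstn (0.32, adjusted p = 0.435), which encodes myostatin, and Bcat2 (-0.19, adjusted p = 0.474), of branched-chain amino acid breakdown. Within libraries 6 to 15, 2 of these 24 were higher and 22 lower, with a median of -0.29, and 5 had an unadjusted p under 0.05, 1 higher and 4 lower.

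Among 24 tested genes of metal handling, 15 were higher and 9 lower, and 4 of 24 had an unadjusted p under 0.05 (3 higher and 1 lower). In libraries 6 to 15 the split was 10 higher and 14 lower, with 3 at that level (2 higher and 1 lower). The transporters with the smallest p were Slc30a9 (77 ± 7.38 in secretome-treated vs. 63.6 ± 7.7 CPM in control, log2 fold change 0.27, adjusted p = 0.158), Slc30a4 (38.3 ± 5.15 vs. 30.8 ± 6.21 CPM, 0.31, adjusted p = 0.204) and the copper importer Slc31a1 (13.4 ± 1.52 vs. 11.1 ± 2.35 CPM, 0.28, adjusted p = 0.264; SD, n = 10 each). Of the 14 acute phase genes tested, 3 were higher and 11 lower, and the 1 with an unadjusted p under 0.05 was Il6ra (-0.44, adjusted p = 0.267), a cytokine receptor subunit. Next by p were Cp (-0.23, adjusted p = 0.506), the copper-carrying ceruloplasmin, and Bcl3 (-0.72, adjusted p = 0.526). In libraries 6 to 15, 1 of the 14 was higher and 13 lower, 4 of them at an unadjusted p under 0.05, with a median of -0.43. Hsd11b2, Tat, Mt4, Slc30a10, Slc39a4, Atp7b, Saa3 and Serpina3m were on these lists and had too few counts to be tested.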

How the data were processed

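The authors isolated RNA from quadriceps tissue, depleted ribosomal RNA, prepared stranded libraries and deposited raw read counts per Ensembl gene for 20 muscles. The submitters' processing notes name cutadapt 1.16, STAR 2.7.9a, featureCounts 1.6.3, DESeq2 1.34.0 and builds GRCm39 and mm39. Groups and replicate numbers came from the labels, which describe each muscle as its own sample.

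Counts were filtered with filterByExpr (14471 of 55416 genes) and normalized with TMM in edgeR 4.0.16 (R 4.3.3). Robust quasi-likelihood tests with Benjamini-Hochberg adjustment over all tested genes compared treatments over 20 muscles, within libraries 6 to 15, and as a contrast of both effects. CPM are normalized counts. Log2 CPM for spread and relations used a prior count of 2. Standard errors were derived as log2 fold change divided by the square root of the F statistic. Spread was tested with limma 3.58.1. Alternatives were DESeq2 1.42.0, RLE, voom, no filter, non-robust fits, a 10% FDR, a replicate block and each muscle left out. Procedures were tested on simulated data.

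The naming rule took every member, the 3 genes of smallest p of each list and the 5 genes most like Fkbp5 and Mt2. Other genes, where named, were chosen after their values were seen. A further gene that the rule takes is not reported here. The members, lists and ranges of library numbers were chosen with earlier results of these data known. Symbols (52083 of 55416 genes) and exon lengths came from GENCODE M21.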

Additional observations from a re-analysis of the deposited data

Results flagged for a closer look

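The effect of secretome on 2 genes differed between libraries 6 to 15 and the other libraries at an unadjusted p under 0.05, in edgeR's contrast of both effects. For Fkbp5 the contrast was -1.65 on the log2 scale (SE 0.362), with all 5 secretome-treated muscles below the control median in libraries 6 to 15 and 4 of 5 above the highest control in the others. The edgeR adjusted p was 0.129 for Fkbp5, from 0.0741 to 0.228 with each muscle left out, and 0.0392 by voom with quality weights. For Ddit4 it was -1.99 (SE 0.820, edgeR adjusted p = 0.354, from 0.259 to 0.563 with each muscle left out). Treatment and library number cannot be told apart in libraries 1 to 5 and 16 to 20. Of 20 sets of 10 muscles (10 genes in 2 groups), 0 held a muscle distant from the others by Dixon's criterion, where chance gives about 1.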

How the results depend on the processing

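No alternative to the comparison over 20 muscles or within libraries 6 to 15 called any of the 10 genes, apart from Fkbp5 between libraries 1 to 5 and 16 to 20 (1 member, 532 genes in all). The number of all genes called moved more. Over 20 muscles it was 1 in edgeR, 213 in DESeq2 (67 higher), 3 by voom with quality weights, 3 at a 10% FDR, 0 with the replicate block, and 0 to 13 with each muscle left out. Within libraries 6 to 15 it was 0 in edgeR, 37 in DESeq2, 11 with no filter and 3 by voom. For the contrast of both effects it was 8, with 130 by voom (1 member, Fkbp5) and 1 to 9 with each muscle left out. For the spread it was 1, with 2 for deviations from the mean and 0 to 2 with each muscle left out. Passing pairs numbered 5, with 1 within libraries 6 to 15, 2 without the 2 farthest muscles and 3 to 5 with each muscle left out. The cause of these shifts was not tested, beyond the smaller number of muscles in some.

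Signs of small differences turned. Over 20 muscles voom gave 0.016 for Klf15, -0.035 for Zbtb16 and 0.27 for Mt1. Klf15 was at 0.062 and Mt1 at 0.55 between libraries 1 to 5 and 16 to 20. Voom gave 0.15 for Sgk1 within libraries 6 to 15, and contrasts of 0.067 for Nr3c1 and 0.0040 for Sgk1. With each muscle left out, values over 20 muscles ranged from -0.14 to 0.051 for Klf15, from -0.028 to 0.099 for Zbtb16, from -0.32 to 0.25 for Mt1 and from -0.12 to 0.32 for Mt2. In libraries 6 to 15 they ranged from -0.15 to 0.077 for Tsc22d3, from -0.21 to 0.13 for Sgk1, from -0.032 to 0.18 for Klf9 and from -0.24 to 0.014 for Zbtb16, and the contrast for Nr3c1 ranged from -0.17 to 0.15. Differences in deviation ranged from -0.20 to 0.026 for Fkbp5, from -0.13 to 0.013 for Klf15 and from -0.17 to 0.079 for Ddit4.

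Muscles with the same replicate number did not deviate together (correlations from -0.24 to 0.221, 2 of 10 above 0.1, and 0 muscles closest to their own number). Each such pair joined muscles from different ranges of library numbers, which stood apart, so these correlations cannot exclude a pairing. The replicate block turned Mt1 to 0.40 and changed no call of the 10 genes.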

Other observations

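Markers of the other cell types were compared between treatments, and 0 of them passed the FDR in edgeR over 20 muscles. The log2 fold changes below are those of the genes of smallest p in each list, and counts at an unadjusted p under 0.05 stand against 15.7% of all genes over 20 muscles and 9.9% within libraries 6 to 15. All 8 macrophage genes were lower in both sets, 5 and 6 of them at that level, led by Csf1r (-0.76), Adgre1 (-0.82) and C1qc (-0.97). All 7 adipocyte genes were lower in both sets, 2 and 3 of them at that level, led by Cfd (-0.87), Retn (-0.91) and Plin1 (-0.68). Of 6 endothelial genes 5 were lower in both sets, with 1 at that level in each, and the first by p were Vwf (-0.31), Tek (-0.21) and Emcn (-0.14).

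Other lists depended on the libraries. Muscle fibre genes were higher in 8 of 9 cases over 20 muscles and in 3 of 9 within libraries 6 to 15, with 0 at that level in either, and Myh4 went from 0.35 to 0.05, Acta1 from 0.16 to -0.07 and Ttn from 0.30 to 0.01. All 6 fibroblast genes were lower over 20 muscles with 0 at that level (Pi16 -0.64, Pdgfra -0.36, Col1a1 -0.73), and 4 of 6 were lower within libraries 6 to 15, where 1 of the higher genes was at that level. All 5 Schwann cell genes were lower (Mbp -0.21, Pmp22 -0.22) and 4 of 5 within libraries 6 to 15, with 0 at that level. Neutrophil genes were higher in 3 of 5 cases in both sets with 0 at that level (S100a9 1.37, S100a8 1.33, Cxcr2 0.92, and -0.01, 0.50 and 0.14 within libraries 6 to 15), blood genes in 2 of 5 with 0 at that level (Hbb-bt -1.14, Hba-a2 -1.01, Alas2 0.21, and -0.17, -0.09 and -0.29), and smooth muscle genes in 1 of 3, with Acta2 (-0.54) at that level over 20 muscles only, followed by Myh11 (-0.24) and Rgs5 (180 ± 31.7 vs. 180 ± 41.8 CPM, SD). Of 15 clock genes tested, 9 were higher over 20 muscles and 8 within libraries 6 to 15, with 1 and 5 at that level, and the first by p were Nr1d2 (0.22), Clock (0.25) and Per1 (0.20).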
